A study of Mus musculus with 18 samples.

Results

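Interferon response genes are the genes that cells transcribe more strongly after interferon binds its receptor. They were studied here as a list of 36 gene names, of which 32 had a probe set that the platform annotation assigns to that gene alone, out of 19938 genes measured in this way. The other 4 were not analysed: the probe sets of Isg15, Gbp2 and Igtp were shared with another gene (Gm9706, Gbp2b and Irgm2), and no listed probe set named Ifi44. Irf1 was the 1 member with several probe sets, and the one with the highest mean was used. The samples were wild type mouse embryonic fibroblasts, connective tissue cells grown from C57BL/6 embryos at embryonic day 13 after head and liver had been removed. All of them had been exposed to 100 nM dexamethasone for 2 h, a synthetic glucocorticoid used to set the circadian clocks of cultured cells to a common phase, and no cells without it were analysed here. The series follows gene expression over 1 circadian cycle in 18 expression arrays, 1 per sample, with 3 samples collected 22, 26, 30, 34, 40 or 46 h after the dexamethasone. The labels name 2 mice of origin, describe the serum in the medium in different ways, and call the 3 samples of a time biological replicates without saying how the cultures were kept apart, so the p-values below measure the spread between these samples. In cultures of this kind, fewer cells of a type and less RNA per cell cannot be told apart.

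Type I interferons bind a receptor whose subunits are IFNAR1 and IFNAR2, and the kinases JAK1 and TYK2 then act on STAT2. STAT2 and IRF9 are subunits of the complex ISGF3, which binds a DNA element called the interferon-stimulated response element (ISRE), while type II interferon acts through the gamma-activated site (GAS). The genes so induced encode sensors of viral RNA, proteins that block viral replication, parts of antigen processing, and regulators of the response itself: IRF7 amplifies it and USP18 dampens it at the receptor. Fibroblasts keep a low level of many of these transcripts without infection.

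Both elements were looked for in the 250 bases before each gene's start in the RefSeq promoter table (GRCm38.p6), which held 29 of the 36 listed genes, and the stretches are shown because they are what several members have in common outside the arrays. The ISRE was searched as GAAA, any 2 bases and GAAA, on both strands (TTTC, any 2 bases and TTTC on the other), and the GAS as TTC, any 3 bases and GAA, which reads the same on both. An ISRE match was present in 12 of 29 members (41.4%) and in 3.46% of the 27025 genes of the table; a GAS match was present in 7 of 29 (24.1%) and in 8.13% of all genes. The ISRE matches belonged to Bst2, Cxcl10, Gbp2, Gbp3, Ifit1, Ifit3, Igtp, Irgm1, Isg15, Oas1a, Rsad2 and Stat2. The GAS matches belonged to Bst2, Eif2ak2, Ifit2, Igtp, Irf1, Oas1a and Psmb8. Each sequence below is on the gene's own strand, 5′ to 3′, with the ISRE matches in capitals (for Irf1, the GAS match). The first 5 belong to members whose level differed between times. Irf7, Irf9, Eif2ak2, Oasl2, Xaf1 and Dtx3l also differed and had no ISRE match. Usp18 differed too but had no entry in the promoter table, like Dhx58, Mx1, Mx2, Parp9, Parp14 and Rtp4. Of 33 member promoters 21 started at the 5′ limit of the RefSeq gene, and starts outside the table were not searched. Whether a match goes with a difference between times was not tested.
Stat2: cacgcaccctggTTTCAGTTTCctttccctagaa
Gbp3: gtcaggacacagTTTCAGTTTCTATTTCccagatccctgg
Bst2: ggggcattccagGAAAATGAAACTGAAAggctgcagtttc
Ifit1: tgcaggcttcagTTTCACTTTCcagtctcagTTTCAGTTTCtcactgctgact
Rsad2: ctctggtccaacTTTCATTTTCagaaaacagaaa
Ifit3: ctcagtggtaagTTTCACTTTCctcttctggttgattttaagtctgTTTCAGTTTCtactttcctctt
Irgm1: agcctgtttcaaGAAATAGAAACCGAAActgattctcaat
Oas1a: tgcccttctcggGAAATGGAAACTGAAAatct
Cxcl10: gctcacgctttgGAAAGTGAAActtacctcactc
Irf1 (GAS): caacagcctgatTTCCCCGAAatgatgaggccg

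In these stretches the match of Stat2 (chr10:128270264-128270297, plus strand) began at position -222 from the start and that of Rsad2 (chr12:26456551-26456584, minus strand) at -120. Ifit1 (chr19:34640773-34640825, plus strand) had 2 separate ISRE matches, beginning at -104 and -85, and its neighbour Ifit3 (chr19:34583361-34583428, plus strand) had 2, at -156 and -122. In Gbp3 (chr3:142559987-142560026, plus strand), Bst2 (chr8:71537575-71537614, minus strand), Irgm1 (chr11:48871423-48871462, minus strand) and Oas1a (chr5:120907526-120907557, minus strand) 2 ISRE matches overlapped each other. The first of these began at -45, -130, -30 and -20 in that order of genes. Bst2 also had a GAS match at -136, left in lower case above up to the bases that overlap the first of its ISRE matches. Cxcl10 (chr5:92349081-92349114, minus strand) had 1 ISRE match at -213, and Irf1 (chr11:53769912-53769944, plus strand) had the GAS at -90. Tap1 and Psmb9 start 226 bases apart on opposite strands. A match is a description of the letters and not a binding site, and no array here measured binding.

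Across the series, the median deposited intensity of an array was 195.9 at the lowest and 210.2 at the highest, and precision is limited by the 3 arrays of a time. Levels below are log2(intensity + 16) after quantile normalization. Genes for olfactory and vomeronasal receptors, which fibroblasts should not transcribe, gave a reference for dim probe sets: 95% of 1194 such genes lay below 7.41 log2. Of the members, 24 had a mean above that line and 8 did not (Irf7, Dhx58, Oas1a, Mx1, Mx2, Rsad2, Psmb8 and Cxcl10). Of 10 fibroblast markers 9 lay above it, all but Thy1, as did 2 of 10 macrophage markers (Cd68 and Itgam), 4 of 9 markers of plasmacytoid dendritic cells and lymphocytes (Tcf4, Cd3e, Nkg7 and Bst2, itself a member) and 0 of 5 endothelial markers. The arrays of 1 time did not spread independently of each other across genes, and 33.8% of the variance within times lay along 1 component.

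Most interferon response genes had lower mean levels at the ends of the cycle than in between, by small amounts. The mean level at 22 h and that at 46 h both lay below all 4 times between them in 20 of the 32 members (62.5%), against 8.03% of all genes, and the count was 17 to 21 when any 1 array was left out. The members with this shape included all 4 transcription factors, Ifih1, Dhx58 and Oasl2 among the sensors, Ifit1, Ifit3, Mx2, Bst2, Rtp4, Ifi35, Xaf1 and Samd9l among the antiviral effectors, and Gbp3, Tap1, Usp18, Trim25 and Dtx3l. The lowest mean fell at 46 h in 19 of 32 members (18.9% of all genes) and at 22 h in 6 (30.9% of all genes). The highest fell at 26 h in 12, at 40 h in 8 and at 34 h in 6 (10.3%, 22.7% and 15.2% of all genes). Taken as the median over the 32 members relative to each gene's mean at 22 h, the level was 0.01 ± 0.05 log2 (22 h), 0.14 ± 0.02 (26 h), 0.11 ± 0.04 (30 h), 0.11 ± 0.07 (34 h), 0.11 ± 0.06 (40 h) and -0.05 ± 0.06 (46 h; SD, n = 3 arrays each). The same median over all genes was at most 0.04. Every array from 26 to 40 h had a member median above 0, and so did 1 of 3 arrays at 22 h and 1 of 3 at 46 h.

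**Figure D1:**
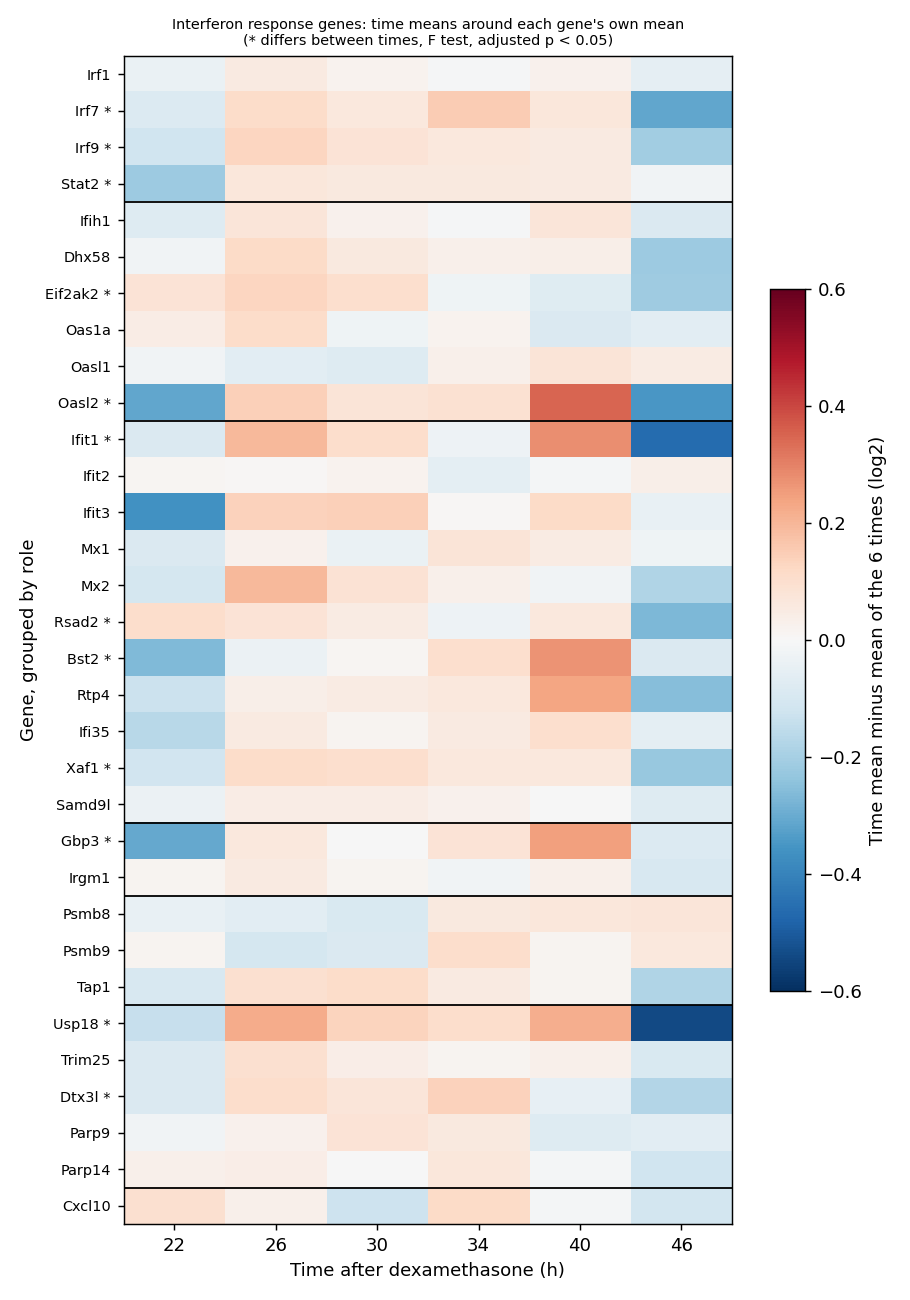
Heat map of the 32 measured interferon response genes (rows, grouped by role) at the 6 times after dexamethasone (columns); colour is the mean of 3 arrays minus the gene's mean over the 6 times, in log2, and an asterisk marks the 12 genes that differed between times by limma's F test. Blue columns at 22 h and 46 h stand on either side of the warmer times from 26 to 40 h, except in genes such as Rsad2, Eif2ak2, Ifit2 and Psmb8.

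Over the 6 times, 12 of the 32 members differed by limma's F test at an adjusted p under 0.05, which is 37.5% of the members beside 19.8% of all genes. They were 3 of 4 transcription factors (Irf7, Irf9 and Stat2), 2 of 6 sensors and RNA-binding enzymes (Eif2ak2 and Oasl2), 4 of 11 antiviral effectors (Ifit1, Rsad2, Bst2 and Xaf1), 1 of 2 GTPases (Gbp3) and 2 of 5 enzymes of the ubiquitin, ISG15 and ADP-ribose systems (Usp18 and Dtx3l). The range between the highest and lowest time mean had a median of 0.29 log2 over the members and 0.19 over all genes. Of the 12, 9 had their lowest mean at 46 h and 3 at 22 h, beside 18.9% and 30.9% of all genes, called or not. Without the arrays of 22 h the count was 7, and without those of 46 h it was 5; the share of all genes was then lower too, at 10.5% and 11%. Without the arrays of any 1 time in between it was 10 to 13, beside 17.1% to 19.5% of all genes. The members shared part of the spread between arrays of 1 time. The deviations of 2 members from their time means correlated by 0.169 on average over the 18 arrays, against 0.00827 for 2 genes of any kind, as a description.

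The transcription factors carry the signal to the response genes. STAT2 and IRF9 bind DNA as parts of ISGF3. Stat2 gave 10.01, 10.10 and 9.97 (22 h), 10.31, 10.28 and 10.36 (26 h), 10.31, 10.30 and 10.31 (30 h), 10.24, 10.32 and 10.35 (34 h), 10.34, 10.26 and 10.30 (40 h) and 10.18, 10.26 and 10.23 (46 h) in log2, for replicates 1 to 3 of each time. All 3 arrays of 22 h lay below all others, and those of 46 h overlapped the middle times only at their upper end. Stat2 had a range of 0.29 log2 (adjusted p = 0.00172, limma's F test). Irf9 gave 8.87, 8.98 and 9.00 (22 h), 9.15, 9.19 and 9.26 (26 h), 9.17, 9.09 and 9.18 (30 h), 8.97, 9.23 and 9.20 (34 h), 9.32, 9.03 and 9.02 (40 h) and 8.85, 8.91 and 8.82 (46 h) in log2, for replicates 1 to 3 of each time. The levels at 46 h reached no further up than those of 22 h and stayed below every array from 26 to 40 h, with a range of 0.34 (adjusted p = 0.022, limma, and 0.0602 and 0.0736 without replicate 1 or replicate 3 of 46 h). IRF7, which drives the late type I interferon genes, was a dim transcript here. Irf7 gave 7.23, 7.45 and 7.23 (22 h), 7.55, 7.34 and 7.59 (26 h), 7.56, 7.37 and 7.42 (30 h), 7.31, 7.65 and 7.65 (34 h), 7.69, 7.28 and 7.38 (40 h) and 6.93, 7.22 and 7.07 (46 h) in log2, for replicates 1 to 3 of each time. All 3 arrays of 46 h lay below every other array, by a narrow margin from 22 h. Irf7 had a range of 0.46 (adjusted p = 0.0454, limma's F test), and this call was lost in 18 of 32 alternative settings, and 12 of these 18 left out 1 array, with adjusted p between 0.0536 and 0.175. IRF1, a factor induced by type II interferon, had a range of 0.11 log2, and its time means lay between 10.13 ± 0.10 at 46 h and 10.24 ± 0.06 at 26 h (SD, n = 3; adjusted p = 0.653, limma).

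Among the sensors and RNA-binding enzymes, Oasl2 had the widest range. It belongs to the oligoadenylate synthetase family, whose members are activated by double-stranded RNA. Oasl2 gave 8.91, 9.13 and 8.79 (22 h), 9.39, 9.48 and 9.34 (26 h), 9.34, 9.20 and 9.47 (30 h), 9.05, 9.59 and 9.42 (34 h), 9.94, 9.44 and 9.45 (40 h) and 8.91, 8.83 and 8.99 (46 h) in log2, for replicates 1 to 3 of each time. The arrays of 22 h and 46 h overlapped, and of the 12 arrays between, 1 at 34 h lay among them. The range was 0.70 log2 (adjusted p = 0.00563, limma's F test). EIF2AK2, also called PKR, halts translation once it binds double-stranded RNA, and it followed another course. Eif2ak2 gave 9.06, 9.01 and 9.10 (22 h), 9.12, 9.20 and 8.98 (26 h), 9.05, 9.00 and 9.17 (30 h), 8.92, 8.97 and 8.96 (34 h), 8.82, 9.00 and 8.89 (40 h) and 8.76, 8.72 and 8.80 (46 h) in log2, for replicates 1 to 3 of each time. Its arrays of 46 h were below those of every other time, and its level at 22 h was close to that at 26 and 30 h (range 0.34, adjusted p = 0.00457, limma). The other 4 of this role did not pass: Ifih1, the sensor MDA5, with a range of 0.16 (adjusted p = 0.0991), Dhx58, the related protein LGP2, with 0.33 (adjusted p = 0.185), Oas1a with 0.19 (adjusted p = 0.559) and Oasl1 with 0.15 (adjusted p = 0.47, all limma).

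Of the 11 antiviral effectors 4 passed, among them 1 of the 3 IFIT genes. IFIT1, IFIT2 and IFIT3 bind RNA and one another and restrict translation of viral RNA, and their genes lie close together on chromosome 19. Ifit1 gave 9.60, 9.66 and 9.55 (22 h), 9.96, 9.84 and 9.86 (26 h), 9.77, 9.68 and 9.93 (30 h), 9.22, 9.82 and 9.94 (34 h), 10.16, 9.77 and 9.98 (40 h) and 9.05, 9.16 and 9.47 (46 h) in log2, for replicates 1 to 3 of each time. Ifit1 had its lowest levels at 46 h, but replicate 1 of 34 h lay among them; the range was 0.74 log2 (adjusted p = 0.013, limma's F test, and 0.0598 and 0.052 without replicate 1 or replicate 2 of 46 h). Ifit3 gave 9.68, 9.99 and 9.63 (22 h), 10.35, 10.24 and 10.21 (26 h), 10.24, 10.14 and 10.45 (30 h), 9.87, 10.19 and 10.35 (34 h), 10.43, 9.96 and 10.35 (40 h) and 9.90, 10.12 and 10.24 (46 h) in log2, for replicates 1 to 3 of each time. The mean of Ifit3 was lowest at 22 h, with overlap between 22 h and the times from 34 h on, and its range of 0.51 did not pass (adjusted p = 0.061, limma). Ifit2 gave 9.21, 9.21 and 9.19 (22 h), 9.19, 9.21 and 9.20 (26 h), 9.20, 9.15 and 9.29 (30 h), 9.10, 9.08 and 9.21 (34 h), 9.08, 9.25 and 9.21 (40 h) and 9.26, 9.08 and 9.34 (46 h) in log2, for replicates 1 to 3 of each time. All arrays of all times of Ifit2 overlapped, with a range of 0.09, the smallest among the members (adjusted p = 0.817, limma). Ifit2 was the 1 gene of the 3 with no ISRE match in its promoter window, and a link to its course was not tested.

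BST2, or tetherin, holds budding virus at the cell surface. Bst2 gave 8.85, 9.13 and 8.93 (22 h), 9.11, 9.18 and 9.32 (26 h), 9.31, 9.26 and 9.17 (30 h), 9.16, 9.41 and 9.44 (34 h), 9.75, 9.34 and 9.43 (40 h) and 9.15, 9.26 and 9.04 (46 h) in log2, for replicates 1 to 3 of each time. Its mean was lowest at 22 h and highest at 40 h, and the arrays of 22 h overlapped those of 26 h and 46 h only (range 0.54 log2, adjusted p = 0.0173, limma's F test, and 0.0603 and 0.0569 without replicate 1 or replicate 3 of 22 h). XAF1, an interferon-induced protein that promotes apoptosis, had the shape of the list. Xaf1 gave 8.58, 8.70 and 8.58 (22 h), 8.82, 8.90 and 8.82 (26 h), 8.88, 8.71 and 8.93 (30 h), 8.66, 8.88 and 8.85 (34 h), 8.97, 8.75 and 8.69 (40 h) and 8.52, 8.47 and 8.54 (46 h) in log2, for replicates 1 to 3 of each time. The 46 h arrays were all below the 12 arrays from 26 to 40 h, and 22 h overlapped those only through 1 array (range 0.34, adjusted p = 0.0148, limma, and 0.0531 without replicate 2 of 46 h). RSAD2, or viperin, makes a nucleotide that ends viral RNA chains, and its transcript was dim. Rsad2 gave 7.18, 7.15 and 7.26 (22 h), 7.18, 7.26 and 7.10 (26 h), 7.10, 7.13 and 7.20 (30 h), 6.95, 7.16 and 7.09 (34 h), 7.16, 7.23 and 7.09 (40 h) and 6.96, 6.80 and 6.72 (46 h) in log2, for replicates 1 to 3 of each time. Rsad2 was low at 46 h alone, where 1 of 3 arrays reached the lowest array of 34 h, and its highest mean fell at 22 h (range 0.37, adjusted p = 0.00587, limma). The other effectors did not pass. Mx1 and Mx2, of a GTPase family, had ranges of 0.16 and 0.37, Rtp4 0.49, Ifi35 0.27 and Samd9l 0.12. Their adjusted p lay between 0.152 and 0.762 (limma). For Rtp4 the 3 arrays of 46 h stood at 8.51, 7.70 and 8.57 log2 (SD 0.49), with 1 array far below the others.

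Guanylate-binding proteins and immunity-related GTPases attack the membranes around intracellular pathogens. Gbp3 gave 7.98, 8.24 and 8.07 (22 h), 8.47, 8.47 and 8.47 (26 h), 8.36, 8.35 and 8.51 (30 h), 8.37, 8.42 and 8.68 (34 h), 8.85, 8.56 and 8.54 (40 h) and 8.25, 8.33 and 8.39 (46 h) in log2, for replicates 1 to 3 of each time. The arrays of 22 h lay below every other array, those of 46 h reached into the lower values of the middle times, and 40 h had the highest mean (range 0.55 log2, adjusted p = 0.00505, limma's F test). Irgm1, which regulates the other immunity-related GTPases, had a range of 0.15 (adjusted p = 0.422, limma).

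Of the 3 genes of antigen processing 0 passed. In limma's F test 2 of 3 had an unadjusted p under 0.05, beside 6878 of all 19938 genes. PSMB8 and PSMB9 are the inducible subunits of the proteasome and TAP1 carries peptides into the endoplasmic reticulum. Psmb9 was 7.80 ± 0.10, 7.68 ± 0.03, 7.70 ± 0.01, 7.89 ± 0.03, 7.80 ± 0.15 and 7.85 ± 0.10 log2 at the 6 times in order (SD, n = 3), highest at 34 h and lowest at 26 h. Tap1, whose start lies next to that of Psmb9, was 8.09 ± 0.17, 8.29 ± 0.12, 8.30 ± 0.0047, 8.24 ± 0.13, 8.21 ± 0.13 and 8.01 ± 0.07, with the low ends of the wider list. Their adjusted p were 0.154 and 0.0919, and that of the dim Psmb8, with a range of 0.17, was 0.11 (limma). The difference between these courses was not tested.

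Usp18 and Dtx3l were the members of the ubiquitin, ISG15 and ADP-ribose systems that passed. USP18 removes ISG15 from proteins and blocks the type I receptor, and it had the widest range of all members. Usp18 gave 7.97, 8.07 and 8.04 (22 h), 8.38, 8.40 and 8.38 (26 h), 8.34, 8.29 and 8.27 (30 h), 7.84, 8.61 and 8.36 (34 h), 8.66, 8.13 and 8.35 (40 h) and 7.50, 7.54 and 7.83 (46 h) in log2, for replicates 1 to 3 of each time. All 3 arrays of 46 h lay below every other array, replicate 1 of 34 h lay near them, and the arrays of 26 h and 30 h were tightly grouped (range 0.76 log2, adjusted p = 0.00634, limma's F test). DTX3L is a ubiquitin ligase that works as a pair with PARP9. Dtx3l gave 9.19, 9.28 and 9.25 (22 h), 9.42, 9.44 and 9.43 (26 h), 9.40, 9.40 and 9.39 (30 h), 9.40, 9.46 and 9.53 (34 h), 9.35, 9.28 and 9.19 (40 h) and 9.13, 9.20 and 9.12 (46 h) in log2, for replicates 1 to 3 of each time. The 9 arrays from 26 to 34 h lay above all 9 arrays of the other times (range 0.31, adjusted p = 0.00123, limma). Parp9, its partner, had a range of 0.16 (adjusted p = 0.472) and Parp14, a related ADP-ribosyltransferase, 0.19 (adjusted p = 0.338). Trim25, the ligase that activates the sensor RIG-I, had 0.19 (adjusted p = 0.0989, all limma). Cxcl10, a chemokine that draws T cells, was dim and stood at 7.04 ± 0.12, 6.98 ± 0.02, 6.82 ± 0.11, 7.06 ± 0.12, 6.94 ± 0.15 and 6.84 ± 0.12 log2 at the 6 times (SD, n = 3; adjusted p = 0.144, limma), with overlap between most times.

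**Figure D2:**
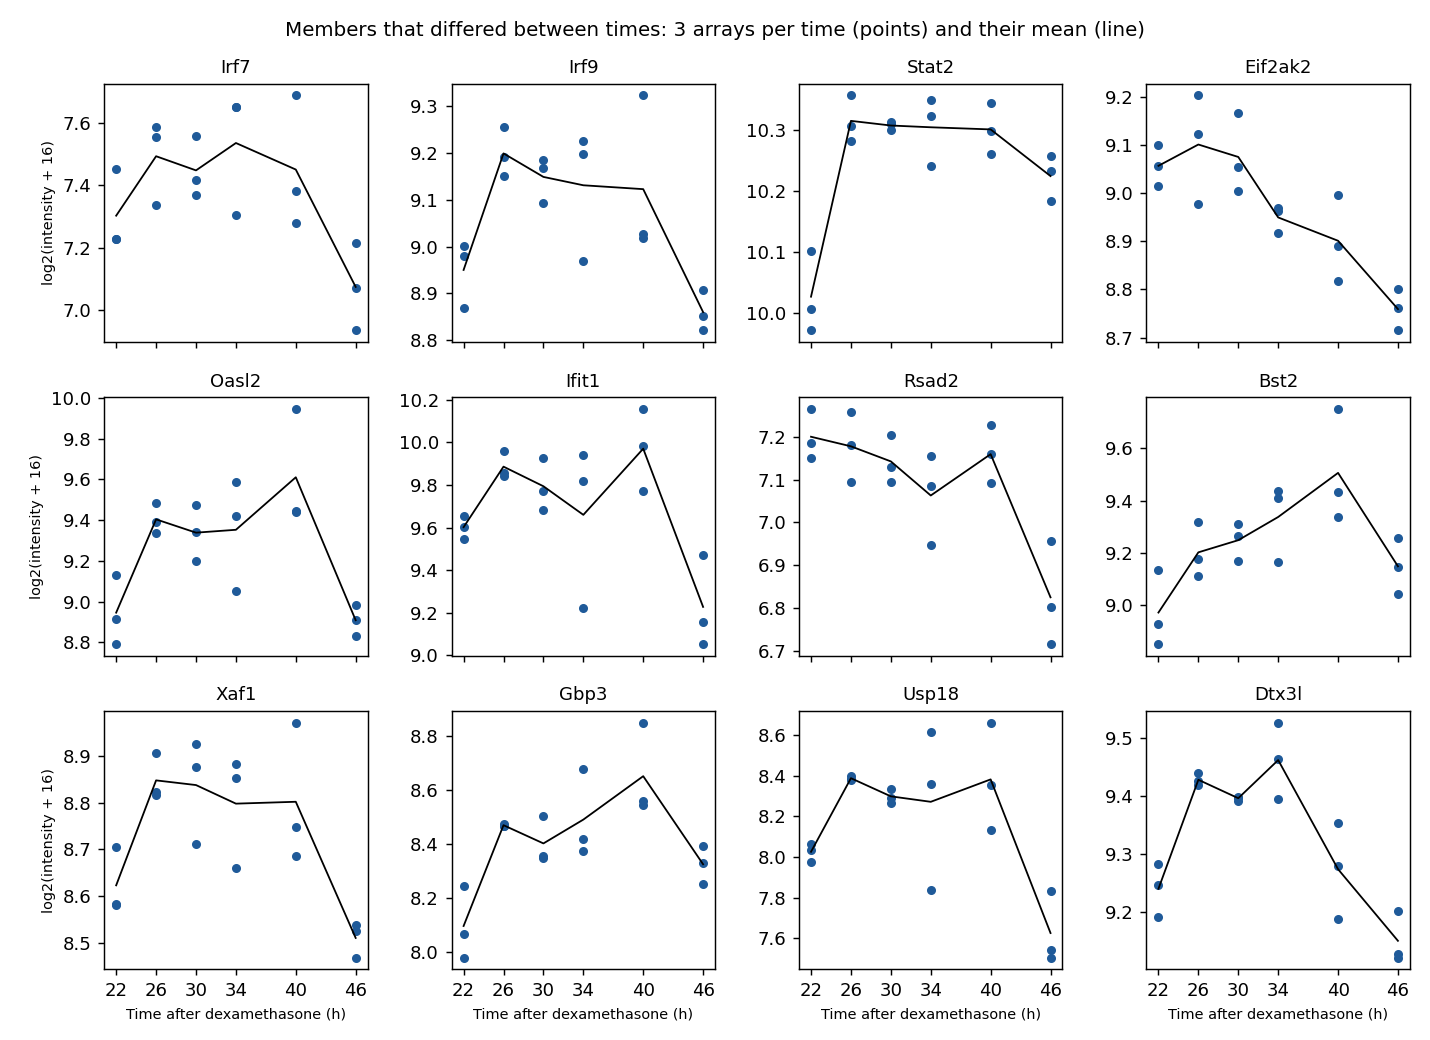
Levels of the 12 members that differed between times, as log2(intensity + 16) on the vertical axis against hours after dexamethasone, with 1 point per array (3 per time) and a line through the time means; each panel has its own vertical scale, which does not start at 0. In Stat2 and Gbp3 the points of 22 h lie below all others, in Irf7, Eif2ak2, Xaf1 and Usp18 those of 46 h do, and at 34 h the points spread wider in Usp18, Ifit1 and Oasl2 than in the other panels.

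The first 12 h of the sampled cycle were set apart by comparing 34 h with 22 h. At 34 h 4 of 32 members were higher than at 22 h and 0 were lower (12.5%, beside 9.44% of all genes, 5.34% higher and 4.1% lower; limma's test with Benjamini-Hochberg adjustment). Stat2 stood at 10.24, 10.32 and 10.35 log2 at 34 h, against 10.01, 10.10 and 9.97 at 22 h, a difference of 0.28 ± 0.05 log2 (SE; adjusted p = 0.00143, limma). Gbp3 differed by 0.39 ± 0.09 (adjusted p = 0.0104), Bst2 by 0.37 ± 0.10 (adjusted p = 0.0334) and Dtx3l by 0.22 ± 0.05 (adjusted p = 0.0102, all limma). For each of the 4, all 3 arrays of 34 h lay above all 3 of 22 h. These genes were picked by the same comparison, so this separation adds no support to it. How many of all genes separate so was not counted. Oasl2, with 0.41 ± 0.14, and Ifit3, with 0.37 ± 0.14, did not pass (adjusted p = 0.0697 and 0.0966, limma). The median over the members was 0.10 log2, with 27 above 0 and 5 below, and over all genes it was 0.04.

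The count of 4 depended on single arrays. It was 1, Stat2, without replicate 1 of 22 h or replicate 3 of 34 h (beside 3.7% and 4.63% of all genes). Gbp3 and Dtx3l there had adjusted p between 0.0646 and 0.0749 (limma). The count was 7 without replicate 2 of 22 h or replicate 1 of 34 h (beside 15.9% and 7.58% of all genes). Replicate 1 of 34 h was the lowest of its 3 arrays in 21 of 32 members, and replicate 2 of 22 h was the highest of its 3 in 21. The call of Bst2 was also lost without replicate 3 of 22 h or replicate 2 of 34 h (adjusted p = 0.118 in both, limma). Without replicate 1 of 34 h the member median was 0.18 log2.

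The next 12 h were examined by comparing 46 h with 34 h. At 46 h 4 members were lower than at 34 h and 0 were higher, beside 3.57% of all genes that differed (2.51% lower and 1.06% higher). Usp18 stood at 7.50, 7.54 and 7.83 log2 at 46 h, against 7.84, 8.61 and 8.36 at 34 h, and fell by 0.65 ± 0.15 log2 (SE; adjusted p = 0.0191, limma). Dtx3l stood at 9.13, 9.20 and 9.12 at 46 h, against 9.40, 9.46 and 9.53 at 34 h, and fell by 0.31 ± 0.05 (adjusted p = 0.0015, limma). Irf7 fell by 0.46 ± 0.11 (adjusted p = 0.03) and Xaf1 by 0.29 ± 0.08 (adjusted p = 0.0477, both limma). In all 4 genes every array of 46 h lay below every array of 34 h, narrowly so in Usp18. This only describes genes picked by the same comparison. Over the members the median was -0.18 log2, with 29 below 0, and over all genes it was -0.01.

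Here too the count depended on single arrays. Without replicate 1 of 34 h the count was 9, without replicate 2 or replicate 3 of 34 h it was 1, Dtx3l, and without any 1 of the arrays of 46 h it was 2. Where single arrays ended the calls of Usp18 and Irf7, in 4 cases each, their adjusted p lay between 0.0691 and 0.161 (limma). Of the 4 calls, that of Dtx3l was kept in all 28 alternatives run, with adjusted p between 0.000183 and 0.024, and that of Xaf1 was lost in 16 of 28, 12 of which left out 1 array. Both comparisons use the arrays of 34 h, so that a low or high array there moves their differences in opposite directions. Dtx3l was the 1 member that passed in both.

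**Figure D3:**
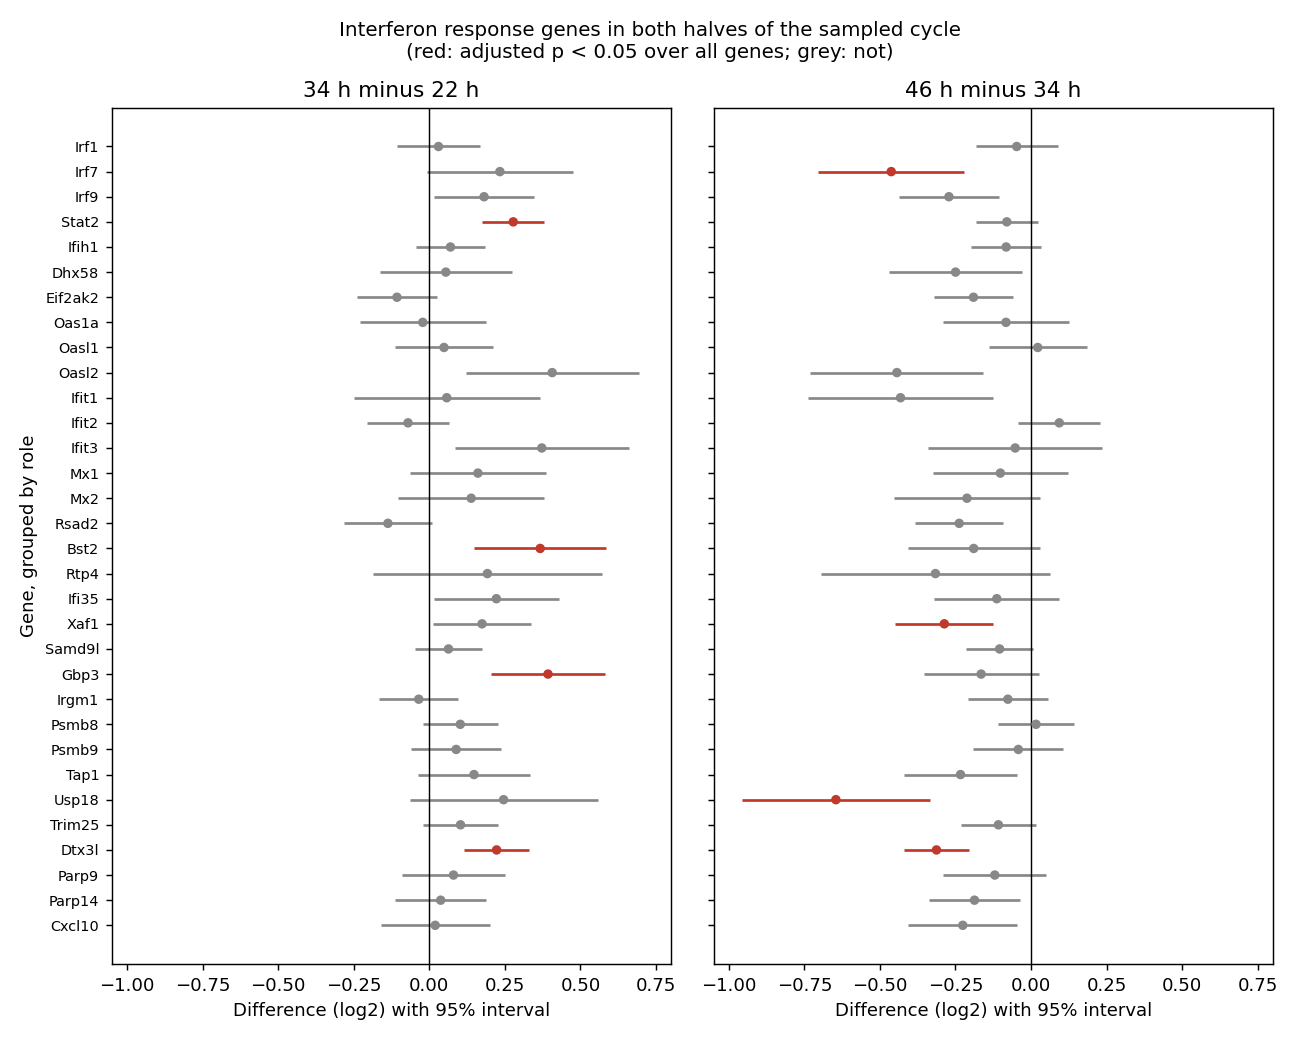
Fitted log2 differences of the 32 members with 95% intervals, 34 h minus 22 h on the left and 46 h minus 34 h on the right, in rows grouped by role; red marks an adjusted p under 0.05 over all 19938 genes in limma. On the left 27 of 32 points lie right of 0, and on the right 29 of 32 lie left of it; the 2 panels share the arrays of 34 h.

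The end times, which lie 24 h apart, were compared next. At 46 h 1 member was higher than at 22 h and 2 were lower, 3 of 32 (9.38%), beside 21.2% of all genes that differed (11.5% higher and 9.73% lower). On the values as deposited, without quantile normalization, 3 members were higher and 3 lower (19.4% and 10.9% of all genes). Rsad2 stood at 6.96, 6.80 and 6.72 log2 at 46 h, against 7.18, 7.15 and 7.26 at 22 h, and fell by 0.37 ± 0.07 log2 (SE; adjusted p = 0.000813, limma). Eif2ak2 fell by 0.30 ± 0.06, with 8.76, 8.72 and 8.80 at 46 h, against 9.06, 9.01 and 9.10 at 22 h (adjusted p = 0.00244, limma). Stat2 was higher by 0.20 ± 0.05, with 10.18, 10.26 and 10.23 at 46 h, against 10.01, 10.10 and 9.97 at 22 h (adjusted p = 0.00722, limma). None of the 3 overlapped between the 2 times, which only describes genes picked by this comparison. The 3 calls were kept in all alternatives in which the gene was tested. The count rose to 5 without replicate 2 of 22 h, replicate 1 of 34 h, replicate 1 of 40 h or replicate 3 of 46 h. The share of all genes was then 23.8%, 20.5%, 21.9% and 15.7% in that order. Usp18 and Ifit1, the widest in range, fell by 0.40 ± 0.15 and 0.37 ± 0.15 but did not pass (adjusted p = 0.0637 and 0.0782, limma). Both passed when only the arrays of these 2 times were fitted, with 5 members called beside 16.8% of all genes. Oasl2, the next in range, differed by -0.04 ± 0.14 with a 95% interval between -0.32 and 0.25. Of the 32 estimates 10 lay above 0 and 22 below. The median over the members was -0.06 log2 and over all genes 0.03, and without replicate 2 of 46 h the member median was 0.002.

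A steady drift over the day leaves the middle time level with the mean of both ends, and this mean was compared with 34 h. At 34 h 1 member, Dtx3l, was higher than the mean of 22 h and 46 h, by 0.27 ± 0.04 log2 (SE; adjusted p = 0.0348, limma), beside 0.135% of all genes (0.0953% higher and 0.0401% lower). The estimate was above 0 in 31 of 32 members, Ifit2 being the exception at -0.08 ± 0.06, and the median was 0.14 log2 over the members and 0.02 over all genes. Oasl2 with 0.43 ± 0.12 and Irf7 with 0.35 ± 0.10 did not pass (adjusted p = 0.174 and 0.184, limma). A cosine with a period of 24 h gave 1 call, again Dtx3l (0.828% of all genes called), with a peak fitted to 31.7 h and an amplitude of 0.14 log2 (adjusted p = 0.0333, limma). The median amplitude was 0.08 over the members and 0.06 over all genes. Of the Dtx3l calls, the one at 34 h was lost in 11 of 28 alternatives, 9 of them without 1 array, and the cosine in 13 of 30, 10 of them without 1 array. Over those alternatives the adjusted p lay between 0.00338 and 0.154 for the test at 34 h and between 0.00707 and 0.2 for the cosine. The times cover 1 cycle, so whether the course repeats cannot be seen.

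The genes ahead of the members in the pathway were measured on the same arrays. Of 14 interferons and receptor subunits 12 were measured, and 0 passed limma's F test or any other comparison. In the F test 1 of 12 had an unadjusted p under 0.05, beside 6878 of all 19938 genes. The receptor subunits Ifnar1, Ifnar2, Ifngr1, Ifngr2 and Il10rb were above the line for dim probe sets, and no interferon was. Ifnb1, the gene of interferon beta that fibroblasts make on infection, was 6.72 ± 0.16, 6.71 ± 0.04, 6.65 ± 0.11, 6.73 ± 0.06, 6.84 ± 0.11 and 6.72 ± 0.09 log2 at the 6 times (SD, n = 3), all below that line. Interferon protein was not measured.

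Among 9 of 10 genes of receptor signalling that were measured, Tyk2, a kinase bound to IFNAR1, differed over the times with a range of 0.24 log2 (adjusted p = 0.00729, limma's F test) and passed the cosine. Pias1, which encodes a SUMO ligase, was higher at 46 h than at 22 h by 0.14 ± 0.04 (adjusted p = 0.02, limma). Among 15 of 18 upstream genes of pathogen sensing, 5 passed the F test (33.3%, beside 19.8% of all genes): Tlr3, Tlr4, Ticam1, Irf2 and Rnf135. Against 22 h, 3 of these 15 differed at 34 h (20%, beside 9.44% of all genes). At 46 h 3 differed from 22 h, namely Tlr4, Ticam1 and Irf2 (20%, beside 21.2% of all genes). At 34 h Ddx58, the sensor RIG-I, and Ticam1, the adaptor of TLR3, were higher than at 22 h by 0.20 ± 0.06 and 0.32 ± 0.07 log2 (adjusted p = 0.0414 and 0.00641, limma), and Tlr4, the lipopolysaccharide receptor, fell by a measured 0.27 ± 0.07 (adjusted p = 0.0171), with a mean of 7.26 log2 that lies below the line for dim probe sets. Irf2, which competes with IRF1, was higher at 46 h than at 34 h by 0.24 ± 0.06 (adjusted p = 0.0177, limma), the 1 gene of this list that passed there.

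Markers of other cells were followed over the same times. The median over 10 macrophage markers, relative to 22 h, stayed between -0.04 and 0.06 log2 at the 6 times, and that of 9 markers of plasmacytoid dendritic cells and lymphocytes between -0.01 and 0.12, highest at 40 h. The 5 endothelial markers stayed between -0.10 and 0.02. Of these 3 lists, 2, 4 and 0 markers lay above the line for dim probe sets, so the medians say little about those cells. Of these lists only Bst2, counted above, and Cd14 passed the F test. Genes of dividing cells fell throughout, by 0.59 at 26 h, 0.74 at 34 h and 1.47 ± 0.04 at 46 h as a median over 7 genes (SD, n = 3), all of which passed the F test. Of 10 fibroblast markers 6 passed, and their list had a median of 0.34 ± 0.05 at 46 h. Both lists moved with time and their part in the differences of the members was not tested.

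**Figure D4:**
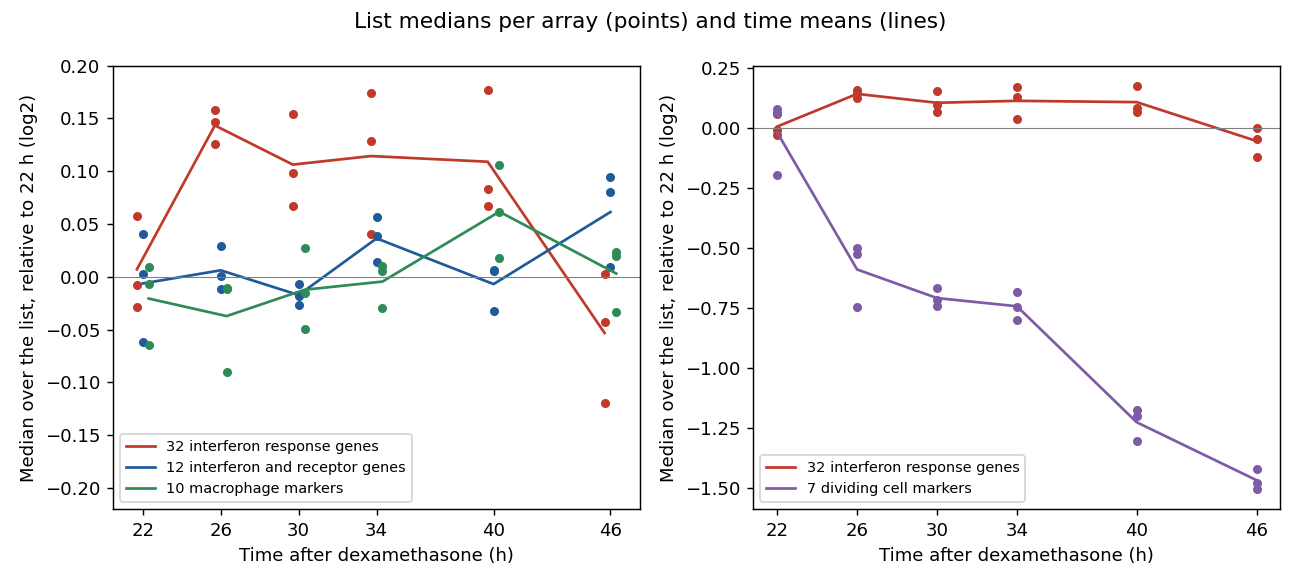
Medians over gene lists per array, relative to each gene's mean at 22 h, in log2 against hours after dexamethasone; points are arrays (3 per time, set slightly apart sideways in the left panel) and lines join time means. On the left the 32 interferon response genes lie near 0.11 to 0.14 from 26 to 40 h and at -0.05 at 46 h. Beside them are 12 interferon and receptor genes and 10 macrophage markers, of which 5 and 2 lie above the line for dim probe sets. On the right, at another scale, 7 markers of dividing cells reach -1.47 at 46 h.

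Arrays of 1 time often stood high or low for many members at once. Besides replicate 1 of 34 h, lowest in 21 of 32 members, and replicate 2 of 22 h, highest in 21, replicate 1 of 40 h was the highest of its time in 20 members, replicate 3 of 30 h the highest in 22, and replicate 2 of 30 h the lowest in 18. Within times, 42.6% of the members' variance lay along 1 component. In Usp18, for example, replicate 1 stood at 7.84 at 34 h beside 8.61 and 8.36 in the others, and at 8.66 at 40 h beside 8.13 and 8.35. The labels give no batch for these arrays, and their part in the results was not tested.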

How the data were processed

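Total RNA of 18 samples was measured on Affymetrix expression arrays. Each probe set has 1 deposited intensity per array, on a linear scale. Per the submitters' processing notes, the authors used PLIER 2.0 and Affymetrix Expression Console 1.1; how these were set is not stated in the labels used here. Of 35556 probe sets, the platform annotation named 1 gene for 21789, several for 1621, and 12146 were unnamed here; 19938 genes remained with the highest mean probe set per gene. All 32 measured members matched the RefSeq table by gene identifier.

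The deposited intensities were taken as log2(intensity + 16), which understates changes of dim genes, and quantile normalized. Limma 3.58.1 in R 4.3.3 (lmFit, eBayes) fitted the 6 time means to all 18 arrays, giving an F test and 4 contrasts, and a separate cosine with a period of 24 h. P-values were adjusted by Benjamini-Hochberg over all 19938 genes, with a threshold of 0.05. The fits were run on simulated data with independent noise in each gene and array, which lacks the spread that genes share within times here. The replicate numbers of the titles recur at every time, but no pairing by number was visible. Of 45 pairs of arrays with the same number, 15 had deviations that correlated by over 0.1. The labels do not say whether same-numbered samples share a culture.

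The members, roles, pathway lists and markers were chosen with earlier results of these data known. All measured members are named, with values per array for those called; other genes are named only where called or as list examples, and Ifit2, Ifit3 and Ifnb1 were given values after these had been seen. Alternatives covered normalization, the added constant, dim genes, array weights, the variance model, probe sets, the replicate number, the period and single arrays. No column was left unused.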

Additional observations from a re-analysis of the deposited data

How the results depend on the processing

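No called difference between times of a member changed sign under any alternative run. The F test called 19 members with array weights, when 54% of all genes were called. In alternatives chosen after seeing the data it called 7 without the arrays of 22 h and 5 without those of 46 h. It called 10 to 13 without those of 1 other time. Without single arrays it called 10 to 14, beside 13.2% to 23.5% of all genes. Array weights also gave 14 members called for 34 h against 22 h, 8 for 46 h against 34 h, 12 for 46 h against 22 h and 9 for 34 h against the mean of both ends. The shares of all genes were then 33.7%, 7.49%, 44.1% and 4.77% in that order. A fit of only the arrays compared gave 1, 1, 5 and 0 in that order, beside 4.11%, 2.59%, 16.8% and 0.0201% of all genes. On the values as deposited, 46 h against 34 h gave 2 with a median of -0.12 log2, and 46 h against 22 h gave 6. Beside these, 3.46% and 30.3% of all genes were called. A block for the 2 sets of arrays on either side of the first component, also chosen after seeing the data, gave 6 for 46 h against 22 h, 2 for 34 h against the mean and 2 for the cosine. Of all genes, 30.1% and 0.537% were called in the first 2, and 641 of 19938 by the cosine. With dim genes left out 34 h against the mean gave 2, beside 0.746% of the 12196 genes then tested. The cosine gave 0 with a linear term, 0 at a period of 22 h and 2 at 26 h, beside 34, 5 and 1985 of all 19938 genes.

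Leaving out each array in turn gave 1 to 7 members for 34 h against 22 h with a median between 0.0903 and 0.178 log2, 1 to 9 for 46 h against 34 h (-0.209 to -0.121), 3 to 5 for 46 h against 22 h (-0.0729 to 0.002), 0 to 2 for 34 h against the mean (0.102 to 0.20) and 0 to 1 for the cosine. The share of all genes then ran 3.7% to 15.9%, 1.48% to 3.94%, 14% to 23.8% and 0.01% to 0.692% for these 4 contrasts. The cause of these moves was not tested. The count of members low at both ends was 17 on the values as deposited (3.69% of all genes) and 17 to 21 without single arrays, also added after seeing the data.

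No pairing by replicate number was visible, which does not exclude a shared culture. Same-numbered arrays correlated between -0.559 and 0.495 with a median of -0.0982 in their deviations, and 3 of 18 arrays correlated best with their own number. With the number as a replicate block the counts were 11 in the F test, 2 for 46 h against 34 h, 0 for 34 h against the mean and 0 for the cosine. Of all genes, 16.2%, 2.87% and 0.0351% were called in the first 3, and 32 of 19938 by the cosine.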
